A study of Rattus norvegicus with 24 samples.

Results

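Cyclins and their regulators were followed in the left ventricle of Dahl salt-sensitive rats. The genes were Ccnd1, Ccnd2, Ccnd3, Ccnb1, Cdk4, Cdkn1a and Pcna, and every probe set that the platform annotation gives to 1 of these symbols alone was taken. That made 7 of the 4737 genes named on the array and 18 of its 8799 probe sets. An Affymetrix array measures a transcript through probe sets, each a group of short probes read together, and 16 of the 18 were bright enough to be tested. The other 2 were U49935mRNA_r_at of Ccnd3, at 18.9 to 64.4 over the 22 distinct arrays, and rc_AA998164_s_at of Ccnb1, at 4.9 to 64.9.

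All rats came from the same strain, which becomes hypertensive on a salt-rich diet, arrived at 5 weeks of age and entered treatment at 6 weeks of age. High salt rats ate chow with 6% NaCl as a model of pathologic cardiac hypertrophy, and arrays were made at 3, 6 and 15 weeks. Exercised rats ran on a treadmill for 6 weeks as a model of physiologic hypertrophy, at a load that was raised over 3 weeks and then held for 3 weeks at 16 m/min, 90 minutes daily, on a slope of 5 degrees. Their arrays were made at 3 and 6 weeks. Controls were sedentary rats of the same age on normal chow, with arrays at 3, 6 and 15 weeks. The titles name 3 arrays in each of these 8 groups, without saying from when the weeks were counted. Nothing states that the arrays of a group are different animals, and the spread behind each p-value may therefore be technical. Sex is not given in the sources used here.

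Of the 24 columns, 4 held only 2 arrays, the same values standing once as control and once as exercise at 3 weeks (numbers 2 and 3). They were left out of the fit, except where all non-salt arrays of 3 weeks formed 1 group. At 3 weeks that left 1 exercise and 1 control array beside 3 of high salt. The 6-week controls also stood apart, with 3' to 5' signal ratios for GAPDH, a gauge of RNA integrity, of 1.58, 2.48 and 3.99. Controls of 15 weeks had 1.09, 1.52 and 1.58, while all other arrays lay between 0.989 and 1.18. The same ratio for beta-actin was 1.98, 3.29 and 2.73 in the 6-week controls and 1.14, 1.27 and 1.56 in those of 15 weeks. With high salt it was 1.04 to 1.06 at 3 weeks, 1.21 to 1.62 at 6 weeks and 1.32 to 1.68 at 15 weeks. The remaining arrays lay between 1.02 and 1.39. Sarcomere markers of cardiac myocytes were bright on all 22 arrays, with Myl2, the ventricular light chain of myosin, at 29955 or more, while the calcium channel Ryr2 ranged from 143.0 to 1423.

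Cells enter the division cycle when D-type cyclins, made from Ccnd1, Ccnd2 and Ccnd3, bind Cdk4 and start to inactivate the retinoblastoma protein. Pcna, the sliding clamp of DNA polymerase, serves DNA replication, and cyclin B1, from Ccnb1, drives entry into mitosis. The protein of Cdkn1a, p21, inhibits cyclin-dependent kinases and binds Pcna, and its gene is a classical target of the tumour suppressor p53. Adult cardiac myocytes rarely divide, while fibroblasts and endothelial cells of the same tissue can, and D-type cyclins have also been linked to growth of the myocyte. In whole ventricle, fewer cells of a type and less RNA per cell cannot be told apart.

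At 15 weeks of high salt, 3 of the 5 Ccnd1 probe sets were lower and both Cdkn1a probe sets higher than in control hearts. Probe sets were called at an adjusted p under 0.05 (limma, Benjamini-Hochberg over 6555 probe sets), and changes are log2 fold changes ± SE of the intensity plus 40, which understates changes of dim probe sets. Of the 16 probe sets 5 were called, beside 7.2% of all tested probe sets. The 2 that rose were both those of Cdkn1a, beside 3.28% of all probe sets higher, and the 3 that fell were all of Ccnd1, beside 3.92% lower. The median change of the 16 was -0.02, against -0.04 over all probe sets tested. All 5 were still called with the GAPDH ratio in the model, and no fit took the beta-actin ratio.

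Ccnd1 encodes cyclin D1, the D-type cyclin that growth factors induce early in G1. Its probe set D14014_at had intensities of 124.6, 312.2 and 209.9 with high salt at 15 weeks, against 793.3, 1254.5 and 1214.7 in controls. The highest salt array lay below the lowest control, and the change was -2.18 ± 0.27 (limma, adjusted p = 5.88e-05). D14014_g_at, named after the same sequence record, had 143.2, 197.8 and 183.4 with high salt, against 507.8, 566.4 and 1194.2 in controls. It fell by 1.80 ± 0.27 on the log2 scale (adjusted p = 0.000325), and the spread of the controls came from 1 bright array. X75207_s_at, named after another record, had 182.2, 59.0 and 143.4 with high salt, against 294.6, 350.1 and 374.5 in controls. These groups did not overlap either, and the probe set fell by 1.25 ± 0.25 (adjusted p = 0.00386), a call lost when only these groups were fitted (adjusted p = 0.0536).

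The 2 remaining Ccnd1 probe sets did not follow. The probe set rc_AA957218_at had 218.9, 370.9 and 363.9 with high salt at 15 weeks, against 231.0, 303.1 and 266.8 in controls. Its groups overlapped, with a difference of 0.20 ± 0.24 (95% interval -0.30 to 0.69, adjusted p = 0.741). The dim rc_AI231257_at had 85.2, 92.9 and 50.6 with high salt, against 20.3, 19.9 and 72.0 in controls, a difference of 0.63 ± 0.36 (interval -0.13 to 1.39, adjusted p = 0.367). So 3 probe sets of Ccnd1 fell and 2 had differences of the opposite sign that did not pass. Over the 20 fitted arrays D14014_at correlated on the log2 scale with D14014_g_at at 0.898, with X75207_s_at at 0.739, with rc_AA957218_at at -0.350 and with rc_AI231257_at at -0.522. Without the 3 salt arrays of 15 weeks these 4 values were 0.601, 0.640, -0.196 and -0.477. The points share arrays and scaling, so these are descriptions only. Which part of the transcript each probe set reads is not given in the sources used here.

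**Figure D1:**
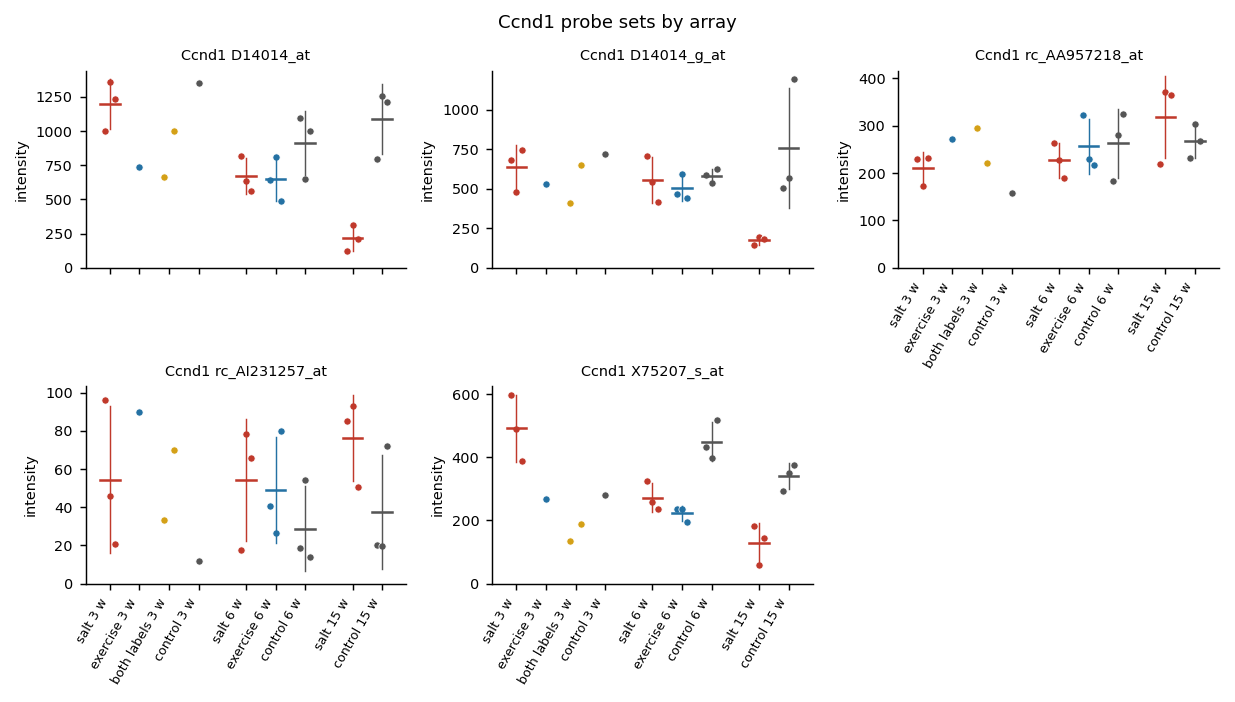
Intensity (linear scale from 0) of the 5 Ccnd1 probe sets on each of the 22 distinct arrays, by treatment and weeks (w). Points are arrays, horizontal lines means and vertical lines 1 SD for groups of 3, and "both labels" marks the 2 arrays deposited as control and as exercise. For D14014_at, D14014_g_at and X75207_s_at the salt arrays of 15 weeks lie below the controls of 15 weeks, while for rc_AA957218_at and rc_AI231257_at they overlap them.

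The low level of Ccnd1 on D14014_at, D14014_g_at and X75207_s_at was seen late. On the other 2 probe sets the mean with high salt was not lower at 15 weeks. At 3, 6 and 15 weeks it was 211.1, 226.5 and 317.9 on rc_AA957218_at and 54.4, 54.1 and 76.2 on rc_AI231257_at. The 6-week and 15-week arrays overlapped on both. D14014_at was at 997.6, 1357.7 and 1233.6 with high salt at 3 weeks, at 815.5, 632.0 and 563.6 at 6 weeks, and at 124.6, 312.2 and 209.9 at 15 weeks. The 3 weeks did not overlap, the step between 6 and 15 weeks was -1.53 ± 0.27 (adjusted p = 0.00212), and that between 3 and 6 weeks, -0.80 ± 0.27, did not pass (adjusted p = 0.861). D14014_g_at had 682.1, 481.1 and 745.1 at 3 weeks, 708.3, 539.6 and 417.8 at 6 weeks and 143.2, 197.8 and 183.4 at 15 weeks. Its 3-week and 6-week arrays overlapped, and it fell by 1.45 ± 0.27 between 6 and 15 weeks (adjusted p = 0.00272). X75207_s_at went the same way, with a mean of 491.6 ± 105 at 3 weeks, 272.3 ± 45.4 at 6 weeks and 128.2 ± 63.0 at 15 weeks (SD, n = 3 each). Its change between 6 and 15 weeks was -0.96 ± 0.25 (adjusted p = 0.0385), a call lost in 10 of 18 alternatives, 5 of them without 1 salt array (any but that of 15 weeks numbered 1, adjusted p = 0.0511 to 0.175).

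These 3 were the only member probe sets called between 6 and 15 weeks of high salt, where 3.19% of all probe sets were called, 1.65% higher and 1.54% lower. The 15-week arrays lay wholly below those of 6 weeks for 4 of the 16, these 3 and Cdk4 (-0.44 ± 0.21, adjusted p = 0.381), beside 8.45% of all, and wholly above for 0, beside 7.15%. Cdkn1a was at 0.93 ± 0.45 and 0.22 ± 0.38 in this step and was not called. Between 3 and 6 weeks of high salt limma called 0 of the 16 and 5 probe sets in all (0.0763%), with 5 members and 303 of all at an unadjusted p under 0.05. Arrays of 6 weeks lay wholly above those of 3 weeks for 1 member (5.72% of all) and wholly below for 3 (6.12% of all). The members nearest to a call there were U24174_at of Cdkn1a, at 1.54 ± 0.38 (adjusted p = 0.540), and X75207_s_at of Ccnd1, at -0.76 ± 0.25 (adjusted p = 0.805).

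In order of group means, high salt at 15 weeks was lowest for D14014_at, D14014_g_at and X75207_s_at, and its range lay below that of the next group in each. A doubly labelled array of 3 weeks, at 134.4 on X75207_s_at, was within that range. On rc_AA957218_at high salt at 15 weeks was instead highest in that order, at 317.9. On rc_AI231257_at, at 76.2, it was below only the 1 exercise array of 3 weeks. Its range overlapped that of the next group on both. For D14014_at the other 7 groups, the 3-week control at 1351.5 highest and the exercised rats of 6 weeks at 646.4 ± 160 lowest, formed a chain in which each overlapped the next or was a single array of 3 weeks. Exercise at 6 weeks had 641.4, 809.3 and 488.5, against 1096.4, 652.4 and 997.2 in controls. These overlapped, at -0.47 ± 0.27 (interval -1.04 to 0.10, adjusted p = 0.307).

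The difference between high salt and control was itself tested between 15 and 6 weeks. D14014_at differed by -1.77 ± 0.39 (adjusted p = 0.0190) and D14014_g_at by -1.71 ± 0.38 (adjusted p = 0.0195), which were the 2 member probe sets called, beside 1.6% of all (0.793% positive and 0.809% negative). X75207_s_at differed by -0.60 ± 0.36 without passing (adjusted p = 0.439). At 6 weeks itself D14014_at was at -0.41 ± 0.27 and D14014_g_at at -0.09 ± 0.27 in high salt against control, neither of them called. Both calls of the difference were lost with the GAPDH ratio in the model (adjusted p = 0.0551 and 0.0527), where both differences were larger in size (-1.98 for D14014_at), and when only the compared groups were fitted (0.0640 and 0.0669), where they were of the same size. Without the 6-week control numbered 2 the adjusted p was 0.0698 and 0.0615, and without the 15-week salt array numbered 1 it was 0.0536 and 0.0547. D14014_at also lost it without the 15-week control numbered 2 (0.0522), and D14014_g_at without the 6-week salt array numbered 1 (0.0505).

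Of 10 fibroblast and matrix markers 9 were tested, and 4 fell in the same salt hearts of 15 weeks: Col3a1 (-3.04 ± 0.32), Col1a2 (-1.59 ± 0.28), Col1a1 (-1.44 ± 0.29), all fibrillar collagen chains, and Lum (-1.22 ± 0.30), the collagen-binding lumican. Of the 5 that were not called, Dcn, Sparc and Pdgfra were at -0.72 to -0.33, and Fn1 and Postn had the opposite sign, at 0.12 and 0.50. The summed intensity of the 9 ranged from 25089 to 38638 with high salt, against 42391 to 55018 in controls. The 6 endothelial markers tested, of 10, summed to 1451 to 1752 with high salt, against 2140 to 2703 in controls, of which limma called 0 and 3 had an unadjusted p under 0.05. Kdr, Nos3, Pecam1 and Icam2 were at -0.97 to -0.40, and Flt1 and Vwf had the opposite sign, at 0.42 and 0.23. Smooth muscle markers, 5 tested of 6, summed to 14612 to 16737 with high salt, against 11006 to 15018 in controls. Of these Des was at 0.68 and the other 4, Acta2, Tagln, Myh11 and Cnn1, at -0.75 to -0.39, with a list median of -0.46 and none called. Of 7 red blood cell markers 3 were tested and 2 rose, Alas2 and Slc4a1, with sums of 31916 to 39002 with high salt, against 18166 to 24499 in controls. Macrophage and granulocyte markers, 6 tested of 11, summed to 2189 to 4685 with high salt, against 1629 to 2878 in controls, which overlapped. Of these S100a8 rose, a dim probe set with a median of 26.45 over the 22 arrays. The other 5, from -0.12 for Fcgr2b to 1.10 for S100a9, were not called. Markers of cardiac myocytes, 12 tested of 14, summed to 261207 to 363365 with high salt, against 291923 to 357482 in controls. None of the tested markers read 0 on any array, and the part of cell make-up in the Ccnd1 result was not tested.

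Among 3821 other genes, each at its brightest tested probe set, those whose log2 intensity followed D14014_at most closely over the 20 arrays were Actb, encoding beta-actin (r = 0.902), Col3a1 (0.886) and Col1a1 (0.871). Without the 3 salt arrays of 15 weeks these correlations were 0.701, 0.588 and 0.549. All 20 points share scaling, and the 3 salt arrays of 15 weeks lie apart on this probe set.

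Cdkn1a is shown with its promoter because it was the member that rose with high salt at 15 weeks and because the p53 protein is its best known regulator. The sequence covers 250 bases before the start and 50 after it (RefSeq, build GRCr8, chr20:7150682-7150981, plus strand), printed in the direction of transcription. Capitals mark the match to the p53 half-site, a motif of 10 bases whose reverse complement is of the same form, so that both strands were searched at once. Its first base lies 201 bases before the start.
Cdkn1a: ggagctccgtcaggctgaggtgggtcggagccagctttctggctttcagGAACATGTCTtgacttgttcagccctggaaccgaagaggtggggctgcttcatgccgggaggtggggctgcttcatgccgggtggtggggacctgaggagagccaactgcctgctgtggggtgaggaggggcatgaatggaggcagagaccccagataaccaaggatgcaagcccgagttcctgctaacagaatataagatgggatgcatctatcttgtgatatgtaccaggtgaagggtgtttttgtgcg
Of 33469 promoters of this length 2671 (7.98%) hold such a match, and of the 5 members in the table, Ccnd3, Ccnb1, Cdk4 and Pcna hold 0. A match is a description of these letters and shows no binding.

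Cdkn1a was highest in the late salt hearts on both of its probe sets. L41275cds_s_at had 344.6, 603.5 and 462.3 with high salt at 15 weeks, against 56.8, 46.1 and 66.1 in controls. The lowest salt array was above the highest control, and the probe set rose by 2.38 ± 0.45 (adjusted p = 0.00223). U24174_at had 431.2, 801.0 and 842.6 with high salt, against 258.1, 276.2 and 179.3 in controls. These groups did not overlap either, and it rose by 1.36 ± 0.38 (adjusted p = 0.0354). The call for U24174_at was lost in 7 of 18 alternatives: without any of the 3 controls or the salt arrays numbered 2 or 3 (adjusted p = 0.0525 to 0.145), with no filter on low values (0.0599) and with array weights (0.0636). The call for L41275cds_s_at was kept in all 18 (adjusted p = 0.000375 to 0.0149).

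At 6 weeks L41275cds_s_at had 63.2, 356.2 and 398.4 with high salt, against 27.9, 44.9 and 42.1 in controls. Of the 16 member probe sets 2 were called in this comparison, this one and D16308_at of Ccnd2, both higher, beside 14.4% of all probe sets called, 6.64% higher and 7.73% lower. L41275cds_s_at rose by 1.75 ± 0.45 (adjusted p = 0.0129), although the salt array numbered 1 was only just above the controls. Without the salt arrays numbered 2 or 3 it was at 1.45 and 1.38 (adjusted p = 0.0695 and 0.0849), and in a fit of only these groups its adjusted p was 0.0622. With the GAPDH ratio in the model the change was 1.95 (adjusted p = 0.445). Set against pooled controls of 3 and 15 weeks it was 1.34 (adjusted p = 0.205). These pooled controls, here and below, were the 1 fitted control array of 3 weeks and the 3 of 15 weeks. They differ from the 6-week hearts in weeks as well as in treatment. A call lost against them does not show that a difference was absent.

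U24174_at had 383.7, 537.3 and 868.3 with high salt at 6 weeks, against 134.4, 218.4 and 518.8 in controls. The control with the GAPDH ratio of 3.99 was the bright one, the groups overlapped, and the difference of 1.05 ± 0.38 did not pass (adjusted p = 0.0726). Without that control it was 1.51 (adjusted p = 0.0182). The difference also passed without the salt array numbered 1 (1.30, adjusted p = 0.0424) and after quantile normalization (1.21, adjusted p = 0.0385). With array weights it passed too (1.15, adjusted p = 0.0158). It did not pass with the GAPDH ratio in the model, against the pooled controls or in a fit of only these groups. Nor did it pass without the salt array numbered 2. In each of these failing fits 0 members were called. Counting all 16 member probe sets, the salt arrays lay wholly above the 6-week controls for 3, L41275cds_s_at and 2 probe sets of Ccnd3, beside 10.5% of all, and wholly below for 1, X75207_s_at of Ccnd1, beside 20.2%.

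High salt was also set against exercise at 6 weeks, with 383.7, 537.3 and 868.3 on U24174_at, against 235.8, 207.7 and 349.4 in exercised rats. The groups did not overlap, and the difference of 1.02 ± 0.38 (interval 0.22 to 1.82) had a p of 0.0154 that did not hold after adjustment. It was the 1 member wholly higher, beside 5.46% of all probe sets, and 0 were wholly lower, beside 7.92%. On L41275cds_s_at exercised rats had 50.3, 133.5 and 164.8, which overlapped the salt arrays (0.83 ± 0.45, adjusted p = 0.743). In this comparison, which does not use the 6-week controls, limma called 0 members and 1 probe set in all (0.0153%), with 2 members and 462 of all at an unadjusted p under 0.05. The other of the 2 members was Pcna at M24604_at, at -0.78 ± 0.35 (interval -1.52 to -0.04). A difference in Cdkn1a between the 2 kinds of load was therefore not detectable after adjustment with 3 arrays a group.

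Exercise against control at 6 weeks gave no call for Cdkn1a. L41275cds_s_at had the exercised values above, all higher than the 27.9, 44.9 and 42.1 of controls, at 0.92 ± 0.45 (adjusted p = 0.218). U24174_at was at 0.03 ± 0.38 (interval -0.78 to 0.83). At 3 weeks both probe sets overlapped between high salt and the 4 non-salt arrays, at 0.30 ± 0.44 and -0.65 ± 0.35. Of the non-salt arrays, the doubly labelled one numbered 2 was the highest on both, at 234.6 and 437.3. The order of group means put high salt at 15 weeks first and high salt at 6 weeks second on both probe sets, and these neighbours overlapped.

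**Figure D2:**
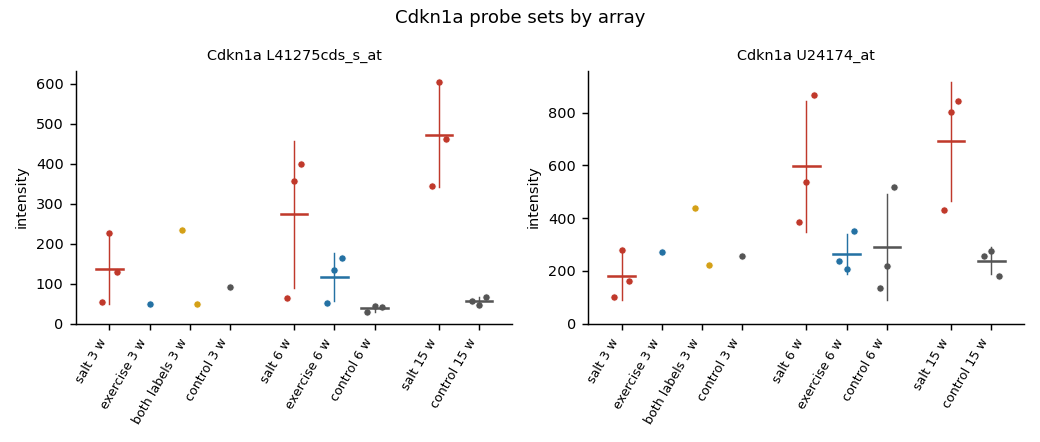
Intensity (linear scale from 0) of the 2 Cdkn1a probe sets on each of the 22 distinct arrays, by treatment and weeks (w), with points for arrays, horizontal lines for means and vertical lines for 1 SD in groups of 3. At 15 weeks the salt arrays lie at 344.6 to 603.5 on L41275cds_s_at and at 431.2 to 842.6 on U24174_at, above all controls of 15 weeks.

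The genes most like U24174_at over the 20 arrays were Anxa5, encoding annexin A5 (r = 0.777), Nol3, encoding an inhibitor of apoptosis (0.735), and Grhpr, encoding glyoxylate reductase (0.700). Without the salt arrays of 15 weeks they were at 0.702, 0.642 and 0.518. The 2 Cdkn1a probe sets correlated at 0.741 over 20 arrays and at 0.583 without those 3.

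Ccnd2 and Ccnd3 encode the other D-type cyclins, and neither was called in high salt against control at 15 weeks. D16308_at of Ccnd2 was at 990.0, 1275.1 and 870.4 with high salt, against 891.4, 841.9 and 1102.9 in controls (0.13 ± 0.36). The second probe set of Ccnd2, rc_AA899106_at, was at -0.03 ± 0.22 with an interval of -0.50 to 0.43. D16309_at of Ccnd3 had 1336.4, 1783.8 and 1449.2 with high salt, against 2238.4, 2052.5 and 1829.8 in controls, and D16309_g_at had 1478.2, 1498.5 and 1407.8 against 1650.1, 2066.0 and 1814.3. Both Ccnd3 groups lay wholly below their controls, at -0.42 ± 0.22 (adjusted p = 0.316) and -0.32 ± 0.17 (adjusted p = 0.304), while U49935mRNA_s_at was at 0.15 ± 0.28.

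Cdk4 encodes the kinase partner of these cyclins. L11007_at had 612.7, 762.8 and 551.8 with high salt at 15 weeks, against 839.9, 786.3 and 938.3 in controls. The groups did not overlap, and the difference of -0.40 ± 0.21 did not pass (interval -0.83 to 0.03, adjusted p = 0.302). Counting all members, the salt arrays lay wholly below the controls for 6 of 16 probe sets, 3 of Ccnd1, 2 of Ccnd3 and that of Cdk4, beside 12.5% of all probe sets. They lay wholly above for both probe sets of Cdkn1a, beside 8.41% of all. The other 8 overlapped.

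The S phase and mitosis members showed no call in any comparison. Pcna had 953.9, 732.5 and 1039.6 on M24604_at with high salt at 15 weeks, against 730.8, 653.1 and 762.9 in controls (0.32 ± 0.35, interval -0.42 to 1.06). M24604_g_at was at -0.01 ± 0.29 (interval -0.62 to 0.61). Ccnb1 had 153.9, 229.7 and 158.7 on X64589_at with high salt, against 187.7, 267.4 and 243.9 in controls (-0.31 ± 0.23, interval -0.80 to 0.17). All 3 probe sets overlapped between the groups, and the intervals leave room for changes of up to 1.06 in Pcna and -0.80 in Ccnb1. The lowest adjusted p of these 3 probe sets at 6 weeks was 0.199, that of Ccnb1 in high salt against control (-0.46 ± 0.23).

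**Figure D3:**
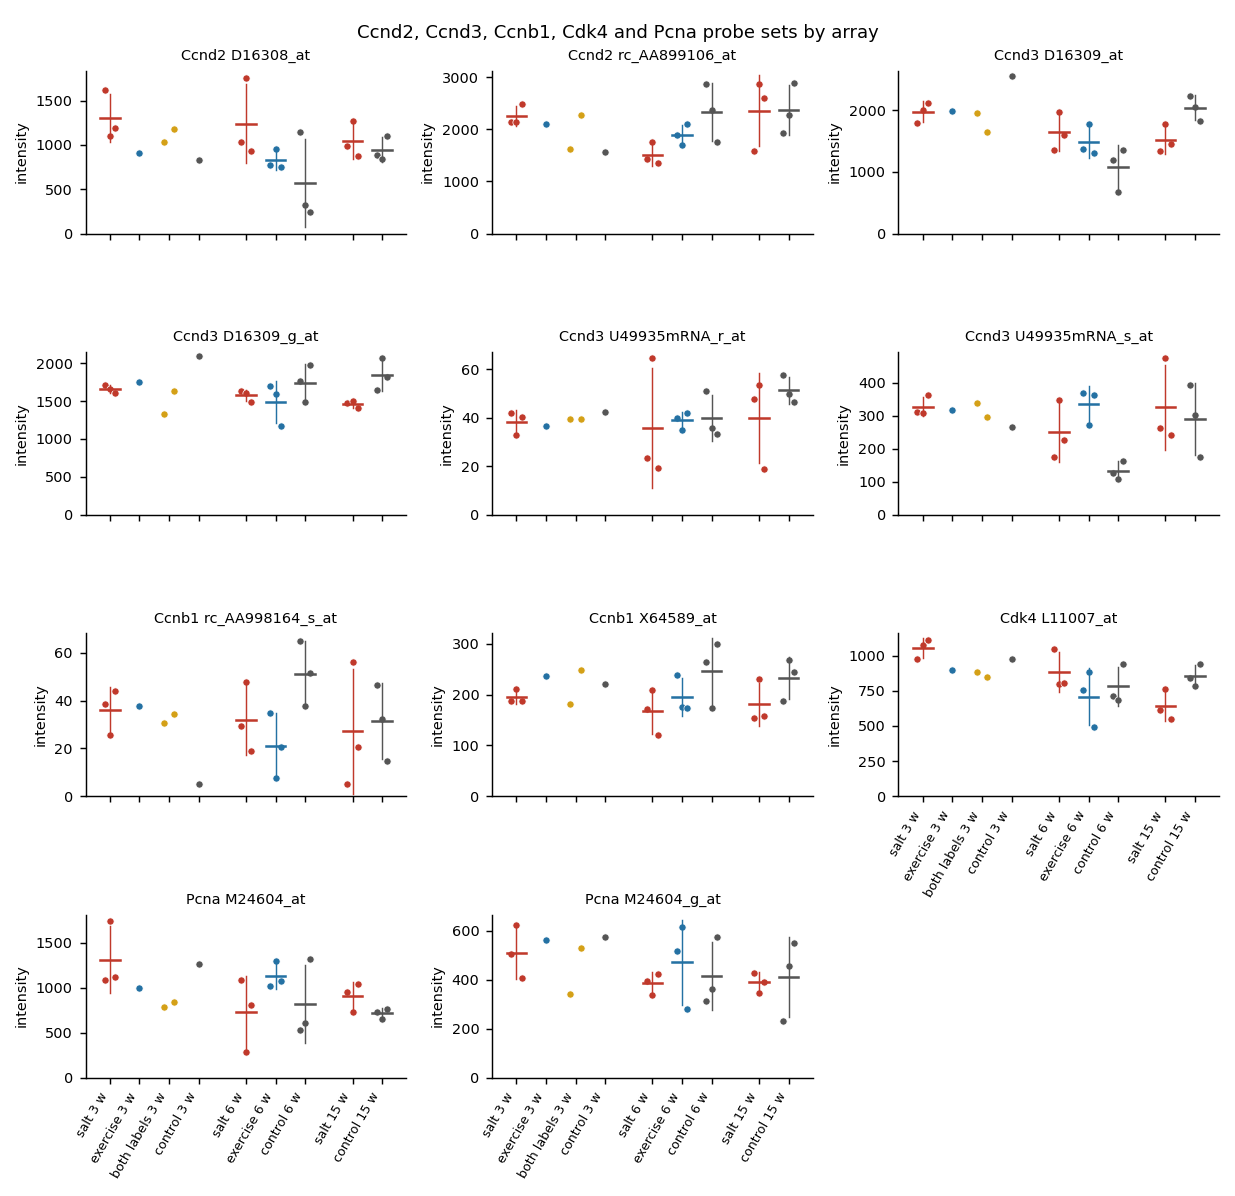
Intensity (linear scale from 0) of the Ccnd2, Ccnd3, Ccnb1, Cdk4 and Pcna probe sets on each of the 22 distinct arrays, by treatment and weeks (w), including the 2 that were too dim to be tested. Points are arrays, horizontal lines means and vertical lines 1 SD for groups of 3. On D16308_at of Ccnd2, 2 of the 6-week controls lie at 245.1 and 324.6, below all other arrays, and on U49935mRNA_s_at of Ccnd3 the 6-week controls lie at 108.3 to 164.2.

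The remaining calls at 6 weeks all rest on the 6-week controls. D16308_at of Ccnd2 had 1034.3, 1753.8 and 931.8 with high salt, against 1146.0, 324.6 and 245.1 in controls whose GAPDH ratios were 1.58, 2.48 and 3.99. The control with the ratio nearest to that of the other arrays lay within the salt range, and the call was for a rise of 1.31 ± 0.36 (adjusted p = 0.0202). With the GAPDH ratio in the model it turned to -0.14 (adjusted p = 0.960), and set against pooled controls of 3 and 15 weeks it was 0.38 (adjusted p = 0.747). It was also lost without the control numbered 2 or 3 (1.08 and 0.91, adjusted p = 0.104 and 0.136), without the salt array numbered 2 (1.04, adjusted p = 0.104) and in a fit of only these groups (adjusted p = 0.129). The other Ccnd2 probe set, rc_AA899106_at, had 1426.4, 1760.2 and 1353.8 with high salt, against 2877.2, 2373.7 and 1760.0 in controls, and its -0.59 ± 0.22 did not pass (adjusted p = 0.0791).

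Exercise against control at 6 weeks gave 2 calls among the 16, beside 7.83% of all probe sets. X75207_s_at of Ccnd1 had 236.4, 236.7 and 195.7 in exercised rats, against 432.7, 398.8 and 517.4 in controls, and fell by 0.89 ± 0.25 (adjusted p = 0.0334; 3.36% of all fell). U49935mRNA_s_at of Ccnd3 had 369.6, 271.3 and 363.1 in exercised rats, against 126.9, 108.3 and 164.2 in controls, and rose by 1.12 ± 0.28 (adjusted p = 0.0183; 4.47% of all rose). Neither pair of groups overlapped. The exercise arrays lay wholly below their controls for 1 member (17.5% of all) and wholly above for 2 (10.9% of all), U49935mRNA_s_at and L41275cds_s_at. In a model with the GAPDH ratio X75207_s_at and U49935mRNA_s_at were at -0.65 (adjusted p = 0.806) and 0.98 (adjusted p = 0.717). Set against pooled controls of 3 and 15 weeks they were at -0.47 (adjusted p = 0.605) and 0.24 (adjusted p = 0.900). With that ratio in the model, limma called 0 of the 6555 probe sets for exercise, against 513 without it, and 15 for high salt, against 942. The ratio itself set the 6-week controls apart, so this fit cannot fully separate the ratio from the control group. A call lost in it does not show that a difference was absent. The call of X75207_s_at was also lost without any exercise array or the controls numbered 2 or 3 (adjusted p = 0.0618 to 0.140) and after quantile normalization (0.0848). That of U49935mRNA_s_at was lost without the exercise arrays numbered 1 or 3 or the control numbered 2 (0.0602 to 0.0844). The part of RNA integrity in these differences was not tested beyond these fits.

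High salt and exercise shared these controls at 6 weeks, so their values stand side by side only. X75207_s_at was at -0.65 ± 0.25 with high salt (adjusted p = 0.0871) beside the -0.89 of exercise, and U49935mRNA_s_at at 0.71 ± 0.28 (adjusted p = 0.0932) beside 1.12. Some smooth muscle and endothelial markers moved in both comparisons too. Tagln, Acta2, Myh11, Kdr and Nos3 fell and Des rose, with high salt and with exercise. Other endothelial markers were not called, and their signs differed. With high salt and exercise Icam2 was at -1.08 and -1.27, Vwf at 0.91 and 0.78, Pecam1 at -0.19 and 0.09 and Flt1 at -0.17 and 0.18. Cnn1 of smooth muscle was at -0.29 and -0.48, not called. Of the cardiac myocyte markers Pln rose in both, Atp2a2 with high salt and Ryr2 with exercise. Of the lymphocyte markers Cd5 rose in both and Ptprc fell with high salt. The summed endothelial markers ranged from 1413 to 2031 with high salt and from 1604 to 1989 with exercise, against 2067 to 3642 in controls. Those of smooth muscle ranged from 12108 to 13763 with high salt and from 12080 to 13633 with exercise, against 9610 to 16244 in controls. Their part in the member results was not tested. The median of all probe sets was -0.15 for high salt and -0.12 for exercise, and -0.05 and -0.04 after quantile normalization, so each change stands beside a shift of that size.

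Controls were also compared between 15 and 6 weeks. D16309_at of Ccnd3 had 2238.4, 2052.5 and 1829.8 at 15 weeks, against 1200.3, 678.0 and 1354.1 at 6 weeks. It was the 1 member called there, beside 0.87% of all probe sets (0.458% higher and 0.412% lower), at 0.95 ± 0.22 (adjusted p = 0.0480), and the call was lost in 11 of 18 alternatives. With the GAPDH ratio in the model it was at 1.01 (adjusted p = 0.451), and without the 6-week control numbered 2 at 0.66 (adjusted p = 0.271). It was also lost without the 6-week control numbered 3 or any 15-week control (adjusted p = 0.0759 to 0.158). The 15-week controls lay wholly above for 3 members (6.07% of all) and wholly below for 1, X75207_s_at of Ccnd1 (11.7% of all). D16309_g_at, named after the same sequence record, was at 0.08 ± 0.17.

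**Figure D4:**
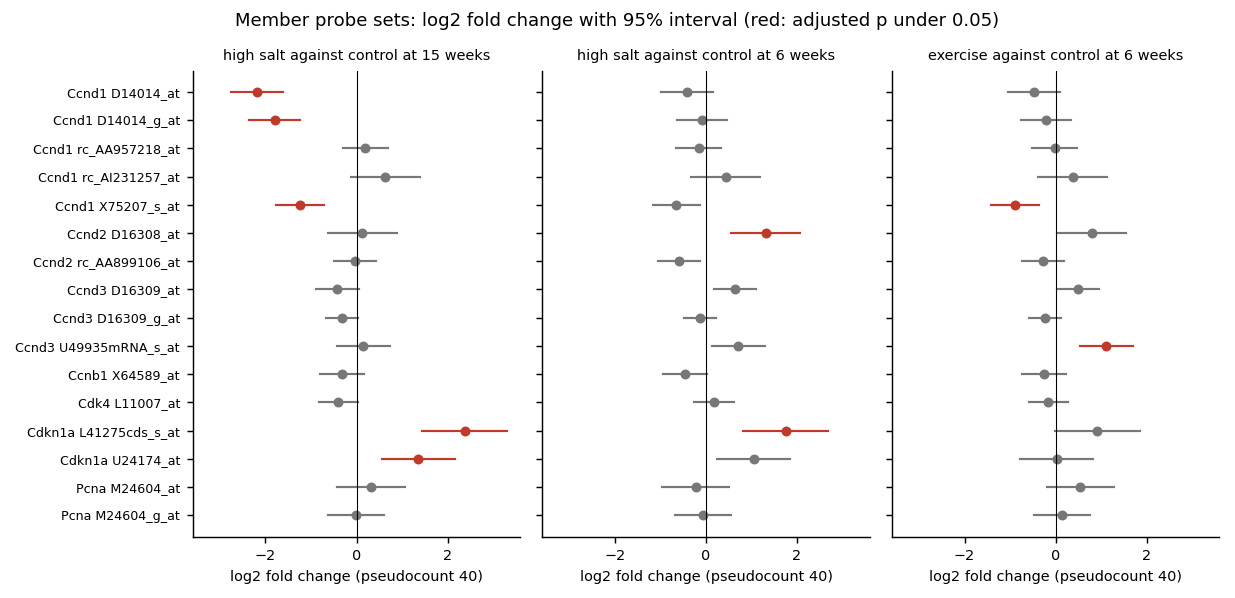
Log2 fold change (intensity plus 40) with its 95% interval for the 16 tested probe sets, in high salt against control at 15 weeks, high salt against control at 6 weeks and exercise against control at 6 weeks. Red marks an adjusted p under 0.05, which 5, 2 and 2 probe sets reached, and the vertical line marks no change.

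High salt was compared with the 4 non-salt arrays at 3 weeks, the earliest stage. X75207_s_at of Ccnd1 had 598.0, 489.3 and 387.5 with high salt, against 280.0, 267.6, 134.4 and 187.4 in non-salt hearts. The groups did not overlap, and the difference of 1.07 ± 0.24 missed the threshold (adjusted p = 0.0850). It passed with a pseudocount of 160 (0.79, adjusted p = 0.0388), with array weights (1.11, adjusted p = 0.00384) and in a fit of only these groups (adjusted p = 0.0385). Here D14014_at was at 0.38 ± 0.27 and D14014_g_at at 0.14 ± 0.25. L11007_at of Cdk4 had 977.1, 1078.0 and 1114.8 with high salt, against 976.4, 902.1, 885.5 and 846.4 in non-salt hearts, at 0.22 ± 0.18. These were the 2 members wholly higher, beside 6.18% of all probe sets, and 0 were wholly lower, beside 8.67%. Limma called 0 members and 10 probe sets in all (0.153%), with 1 member and 528 of all at an unadjusted p under 0.05.

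Other genes of the cycle were taken from 7 lists by role, each gene at its brightest tested probe set, and 43 of 118 listed genes could be tested. In high salt against control at 15 weeks 0 rose and 2 fell, beside 3.28% and 3.92% of all probe sets, a share near that background, with a median of -0.15 against -0.04 over all probe sets. Top2a, the topoisomerase of dividing cells, averaged 88.3 ± 40.5 with high salt and 226.8 ± 11.0 in controls (SD, n = 3 each), and fell by 1.11 ± 0.28 (adjusted p = 0.0172). Its 2 other probe sets were at -0.34 and -0.17 and did not pass. Cdc37, a chaperone partner that delivers kinases such as Cdk4 to Hsp90, averaged 3291 ± 32.7 with high salt and 5249 ± 336 in controls, and fell by 0.67 ± 0.16 (adjusted p = 0.0121). Its other probe set was at -0.13 (adjusted p = 0.876). With the GAPDH ratio in the model both calls held, at -1.12 and -0.65. Of the 13 S phase and DNA replication genes tested limma called 0 there, with 4 at an unadjusted p under 0.05 and a median of -0.29, and of the 8 genes of G2 and mitosis Top2a was the 1 called, with a median of -0.28.

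Ccng1, encoding cyclin G1, like Cdkn1a a target of p53, had its largest mean in the late salt hearts. It averaged 14709 ± 912 with high salt at 15 weeks, with the lowest array at 13794, and 7088 ± 1908 in controls, with the highest at 9290. Its difference of 1.08 ± 0.33 just missed the threshold (adjusted p = 0.0520). At 6 weeks it averaged 10729 ± 1252 with high salt, 8596 ± 1002 with exercise and 3200 ± 2413 in controls. It rose by 2.00 ± 0.33 with high salt (adjusted p = 0.000814) and by 1.68 ± 0.33 with exercise (adjusted p = 0.00409). With the GAPDH ratio in the model these were 0.24 (adjusted p = 0.833) and -0.19 (adjusted p = 0.936), while pooled controls of 3 and 15 weeks gave 0.56 (adjusted p = 0.509) and 0.24 (adjusted p = 0.932). The sign for exercise thus turned with that ratio in the model.

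Among the 43 genes, high salt against control at 6 weeks gave 2 that rose and 4 that fell, beside 6.64% and 7.73% of all probe sets, and exercise gave 1 that rose, Ccng1, and 0 that fell, beside 4.47% and 3.36%. These shares are near the background of all probe sets and are no result about the cell cycle as a group. Beside Ccng1, Gadd45a, a growth arrest gene of the p53 response, rose by 1.33 ± 0.33 with high salt (adjusted p = 0.00931), while its 3 other probe sets were at 0.98, -0.01 and 0.19 without passing. Those that fell were Rfc4 (-1.10 ± 0.32), of the clamp loader for Pcna, Rbl2 (-1.01 ± 0.28), a pocket protein related to the retinoblastoma protein, Pold1 (-0.79 ± 0.25), the catalytic subunit of DNA polymerase delta, and Cdc37 (-0.51 ± 0.16). None of these 6 was called with the GAPDH ratio in the model (adjusted p = 0.647 to 0.994) or against pooled controls of 3 and 15 weeks (adjusted p = 0.106 to 0.559). Against those pooled controls Rfc4 was at -1.08 and Cdc37 at -0.56, as large as against the 6-week controls, while Gadd45a was at 0.51, Rbl2 at -0.46 and Pold1 at -0.56. In the model with the GAPDH ratio, where the SEs were larger, Rfc4 was at -0.03 ± 0.46 and Gadd45a at 0.11 ± 0.44. Rbl2 was at -0.50 ± 0.46, Pold1 at -0.57 ± 0.44 and Cdc37 at -0.43 ± 0.26. Other probe sets were at -0.14 and -0.53 for Rfc4 and, with the opposite sign, at 0.71 for Cdc37, none of them called. That Cdc37 probe set, D26564_at, was called with exercise (0.92 ± 0.27, adjusted p = 0.0423), and a second one of Cdc25b, rc_AI012942_at, was called with high salt at 6 weeks (-1.07 ± 0.32, adjusted p = 0.0277). Between 6 and 15 weeks of high salt Cdc25b, a phosphatase that activates cyclin-dependent kinases, was the 1 gene called, at 0.98 ± 0.22 (adjusted p = 0.0130), and rc_AI012942_at was at 0.70 (adjusted p = 0.341). Of the 3 p53 genes tested, Mdm2, the ubiquitin ligase for p53, was at 0.50 ± 0.25 at 15 weeks (adjusted p = 0.274) and Zmat3 at -0.09 ± 0.21. Gadd45a was at -0.15 ± 0.33 there, averaging 827.9 ± 309 with high salt and 887.3 ± 199 in controls (SD, n = 3 each), and its 3 other probe sets were at -0.22, -0.22 and -0.38.

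**Figure D5:**
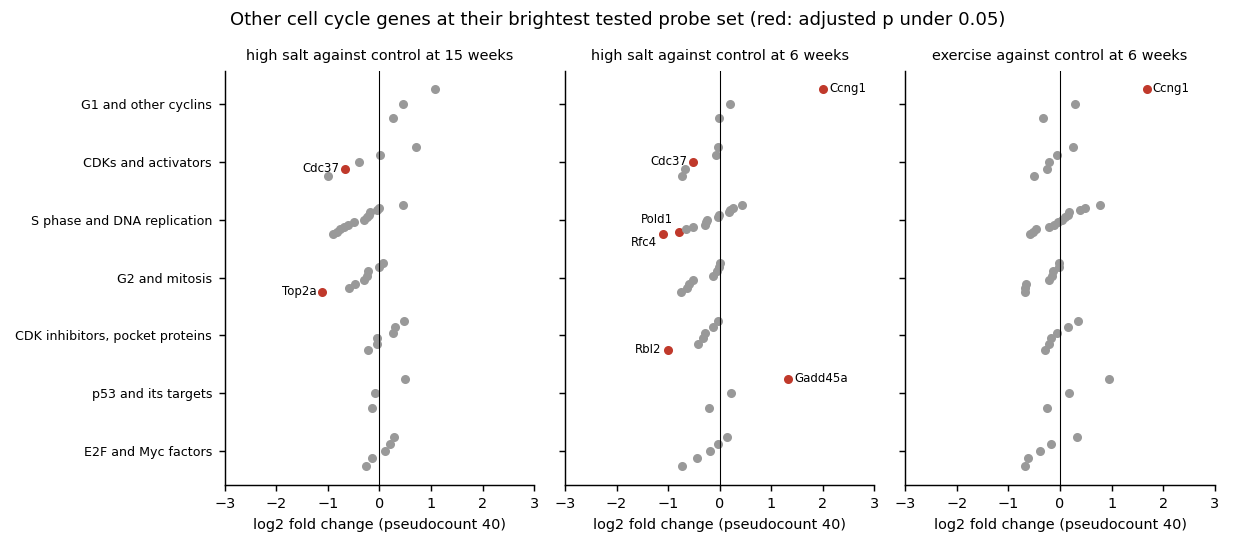
Log2 fold change (intensity plus 40) of 43 other cell cycle genes, 1 point per gene at its brightest tested probe set, by role list and comparison. Red points with names reached an adjusted p under 0.05: 2 at 15 weeks, 6 for high salt at 6 weeks and 1 for exercise at 6 weeks.

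The patterns of the other members were each closest to different genes over the 20 arrays. Ccnd2 at rc_AA899106_at was closest to Chrm4 (r = 0.763), Ccnd3 at D16309_at to Sub1 (0.782) and Ccnb1 to Mal, P3h4 and Tmem255b, of which the third was at 0.786. Cdk4 was closest to Ndufa4l2 (0.781) and then Lum (0.762), and Pcna at M24604_at to Zranb2 (0.725). Within genes, the 2 probe sets of Ccnd2 correlated at 0.113, D16309_at and D16309_g_at of Ccnd3 at 0.418, and those of Pcna at 0.572. Probe sets of the same gene thus followed each other to very different degrees, and levels are compared only within a probe set.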

How the data were processed

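Affymetrix arrays of 24 labelled columns were used as deposited: the authors' table holds 1 linear intensity per probe set and array, and how it was summarised, with which software and on what background, is not given in the sources used here. Means of the columns, with 2% trimmed from each end, were 499.979 to 499.985, a scaling present in the files as deposited. Groups came from the titles. The 59 control probe sets were removed, log2(intensity + 40) was taken, and the dimmest 25% by mean were dropped, leaving 6555 probe sets. limma 3.58.1 in R 4.3.3 (lmFit, contrasts.fit, eBayes with trend) fitted 20 arrays with 1 mean per group and 12 residual degrees of freedom. The spread of a lone array was taken from the other groups. High salt against non-salt at 3 weeks used all 22 distinct arrays. In all 9 comparisons were made, with Benjamini-Hochberg adjustment within each. The number of arrays limits the precision. The members and lists were chosen with earlier results of these data known. All member probe sets were named. Other cell cycle and marker genes were named where called, and many marker genes also where they were not called. The p53 genes beside Cdkn1a were named after their values were seen. Alternatives were the pseudocount, the filter, quantile normalization, array weights, the replicate number as a block, the groups fitted, the GAPDH ratio as a covariate, other readings of the doubly labelled arrays and leaving out each array. Replicate numbers were not taken as pairs. Of 45 pairs of arrays with the same number, 8 correlated above 0.1 in their deviations (range -0.269 to 0.241). Pairs with different numbers were not computed, so these values cannot decide whether the numbers pair the samples. Of the 8799 probe sets 7018 had 1 symbol, 308 several and 1473 none. The fit was also run on simulated data for 1 comparison, and the outcome of that run is not reported here.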

Additional observations from a re-analysis of the deposited data

Results flagged for a closer look

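The difference between high salt and control was not the same at 15 and at 6 weeks for 2 probe sets of Ccnd1, by limma's test of the difference itself. D14014_at differed by -1.77 (adjusted p = 0.0190), with -2.18 at 15 weeks and -0.41 at 6 weeks, and D14014_g_at differed by -1.71 (adjusted p = 0.0195), with -1.80 at 15 weeks and -0.09 at 6 weeks. The 6-week side of both rests on controls with GAPDH ratios of 1.58 to 3.99. An array far from the others was looked for on each of the 18 member probe sets in the non-salt group of 3 weeks. It was the only group with 4 arrays, and 0 such arrays were found. A search among 4 arrays cannot show that none stood apart. On L41275cds_s_at of Cdkn1a the highest of them was at 234.6, with a group median of 70.3. Smaller groups were not checked.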

How the results depend on the processing

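At 15 weeks of high salt against control 5 member probe sets were called, and 4 to 5 under the other settings and without 1 array; in high salt at 15 against 6 weeks it was 3, and 2 to 3 without 1 array. High salt against exercise and high salt at 6 against 3 weeks had 0 under all settings run. High salt against control at 6 weeks (2 called) had 4 after quantile normalization, 6 with array weights, 0 with only the compared groups, 0 with the GAPDH ratio as a covariate, 0 against pooled controls of 3 and 15 weeks, and 0 to 4 without 1 array. Exercise against control (2 called) had 1 after quantile normalization, 5 with array weights, 0 with the GAPDH ratio, 0 against those pooled controls, and 0 to 3 without 1 array. High salt against non-salt at 3 weeks (0 called) had 1 with a pseudocount of 160, with array weights, with the replicate block and with only the compared groups, each time X75207_s_at of Ccnd1, and 0 without 1 array. Control at 15 against 6 weeks (1 called) had 0 with a pseudocount of 10, no filter, quantile normalization, the replicate block, only the compared groups or the GAPDH ratio, 3 with array weights, and 0 to 2 without 1 array. The difference between 15 and 6 weeks (2 called) had 4 with array weights, 0 with only the compared groups, 0 with the GAPDH ratio, and 0 to 3 without 1 array. Among called member values the sign turned once, for D16308_at of Ccnd2 in high salt against control at 6 weeks, at -0.14 with the GAPDH ratio. The cause of these changes was not tested. Of 2695 values recomputed for single probe sets, 2455 kept sign and side of the threshold, 62 lost a call, 29 gained one and 148 uncalled ones changed sign. With the replicate number as a block, which was not taken as a pairing, 5, 3 and 2 members were called in high salt at 15 weeks, high salt at 6 weeks and exercise at 6 weeks, and U24174_at of Cdkn1a passed at 6 weeks (adjusted p = 0.0401). Over all probe sets, array weights gave 1038 calls in place of 472 at 15 weeks, 1792 in place of 942 for high salt and 1731 in place of 513 for exercise at 6 weeks, while fitting only the compared groups gave 269, 388 and 252. The higher member counts with array weights thus stand beside a rise over all probe sets. For the other settings this section gives no count over all probe sets. Changes in the member counts are therefore not read as a result about the members. Dim probe sets such as rc_AI231257_at lie near the pseudocount, where folds are compressed.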
